A study of Mus musculus with 4 samples.

Results

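The cathepsins described here are 6 proteases of the lysosome, encoded by Ctsl, Ctsb, Ctsd, Ctsc, Ctsh and Ctsz. Their spots were found in the deposited table by gene symbol or gene ID, and every cDNA clone was kept apart. This gave 9 clones of 16834, with 2 clones each for Ctsl, Ctsd and Ctsc and 1 each for Ctsb, Ctsh and Ctsz. The genes were chosen from these same arrays, because both Ctsl clones lay lower on both arrays with HuR siRNA than on both control arrays. The values that chose them are therefore given as a description, with no test.

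C2C12 is an established line of mouse myoblasts, the precursor cells of muscle fibres. Proliferating cells were kept in medium with fetal bovine serum and transfected either with an siRNA directed at HuR (2 arrays) or with a control siRNA (2 arrays). HuR, the product of Elavl1, is a protein that binds AU-rich mRNAs, and the comparison asks which transcripts differ when it is targeted. The sources used here give neither the sequence, dose and time of the siRNAs nor the number of cultures behind the arrays. The spread between arrays may thus be technical. Each array carried 16896 spots in 2 sections, and the deposited values are z-scores, in which 1 unit is 1 SD of the values of an array section. A difference between groups is given in these z units, since no fold change can be computed from them.

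Cathepsins are made as inactive precursors in the endoplasmic reticulum, carried to the lysosome mostly by the mannose 6-phosphate receptors, and activated there at acidic pH. Most are cysteine proteases of the papain family, whereas cathepsin D is an aspartic protease. In skeletal muscle they break down proteins delivered by endocytosis and autophagy, and Ctsl mRNA is known to rise in wasting muscle. The transcription factor TFEB switches on many lysosomal genes through promoter sites built around the letters CACGTG.

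Promoter sequences from RefSeq (GRCm38.p6), covering 250 bases before to 50 after the gene's start, were at hand for 4 of the 6 genes, Ctsl, Ctsd, Ctsc and Ctsz. The stretches below are shown because they hold the letters CACGTG, given in capitals. They were found in the windows of Ctsl, whose clones parted the groups, and of Ctsd, whose clones found by gene symbol or gene ID did not.
Ctsl, chr13:64370734-64370770, minus strand: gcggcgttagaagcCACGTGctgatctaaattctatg
Ctsd, chr7:142388050-142388077, minus strand: tccccCACGTGacctgtatccagtcatt
Ctsd, chr7:142387903-142387942, minus strand: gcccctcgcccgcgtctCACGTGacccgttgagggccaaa

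The match of Ctsl began 236 bases before the start, and those of Ctsd 245 and 98 bases before it. CACGTG reads the same on both strands, and 7.15% of the 32851 windows in the table, some of which belong to 1 gene, held it. The longer palindrome TCACGTGA contains it and was held by 0.974% of the windows, among them that of Ctsd through its match nearer to the start. Neither was found in the windows of Ctsc and Ctsz. These are matches of letters and nothing was measured at them.

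Ctsl encodes cathepsin L, a cysteine endopeptidase that was first described in mouse cells as the major excreted protein. Its first clone had z-scores of 0.01 and 0.19 on HuR siRNA arrays 1 and 2, and of 0.29 and 0.45 on control arrays 1 and 2. Its second clone had -0.28 and 0.14 with HuR siRNA and 0.20 and 0.29 with control siRNA. On both clones HuR siRNA array 1 was the lowest array and control array 2 the highest, and the groups did not overlap. The nearest arrays of the 2 groups were HuR siRNA array 2 and control array 1, which were 0.10 apart on the first clone and 0.06 on the second.

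The group means of the first Ctsl clone were 0.1 ± 0.127 on the HuR siRNA arrays (SD, n = 2) and 0.37 ± 0.113 on the control arrays (SD, n = 2), which is a difference of -0.27 z units (SE 0.091). Those of the second were -0.07 ± 0.297 (SD, n = 2) and 0.245 ± 0.064 (SD, n = 2), -0.315 apart (SE 0.151). The 2 arrays with HuR siRNA were 0.42 apart on the second clone, which is more than the difference between its groups. That gap was larger than on 97.8% of all clones, against a median of 0.06. On the first clone the gaps within the groups, 0.18 and 0.16, were smaller than the difference.

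HuR siRNA array 1 carried much of the Ctsl difference. Without it the differences were -0.18 on the first clone and -0.105 on the second, and without HuR siRNA array 2 they were -0.36 and -0.525. Of all clones, 1.43% had a lower difference than the first Ctsl clone and 1.03% a lower one than the second.

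Ctsb encodes cathepsin B, a cysteine protease that also removes dipeptides from the carboxyl end of proteins. Its clone had z-scores of 1.68 and 1.66 with HuR siRNA and of 1.73 and 1.69 with control siRNA. The groups did not overlap here either, but they were parted by a single step of the second decimal. The difference was -0.04 (SE 0.042), as large as the median absolute difference of all clones (0.04).

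Ctsd encodes the aspartic protease cathepsin D. The first Ctsd clone was at -0.16 and -0.07 with HuR siRNA and at -0.18 and -0.14 with control siRNA, a difference of 0.045 (SE 0.052). The second was at -0.15 and 0.11 with HuR siRNA and at -0.09 and -0.05 with control siRNA, a difference of 0.05 (SE 0.098). On both clones HuR siRNA array 2 was the highest array and the groups overlapped. One further clone is described in the deposited table as the cathepsin D gene but has no symbol or gene ID there, so the rule did not take it. It was at 0.60 and 0.57 with HuR siRNA and at 0.51 on both control arrays, a difference of 0.075 (SE 0.041, limma adjusted p = 0.99). This clone was higher without overlap, as were 13.9% of all clones.

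Ctsc encodes cathepsin C, a dipeptidyl peptidase known for activating the granule proteases of leukocytes. Its first clone was at -1.09 and -1.20 with HuR siRNA and at -1.0 and -1.33 with control siRNA, so that the control arrays enclosed the others. Its difference was 0.02 (SE 0.124). The second clone varied little, from -0.37 to -0.35 over all 4 arrays, with a difference of 0.005 (SE 0.04).

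Ctsh, which encodes the aminopeptidase cathepsin H, was at -0.45 and -0.57 with HuR siRNA and at -0.53 and -0.48 with control siRNA. Ctsz, which encodes the carboxypeptidase cathepsin Z, was at 2.64 and 2.60 with HuR siRNA and at 2.53 and 2.64 with control siRNA. The differences were -0.005 (SE 0.059) and 0.035 (SE 0.056). In both genes the groups overlapped.

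**Figure D1:**
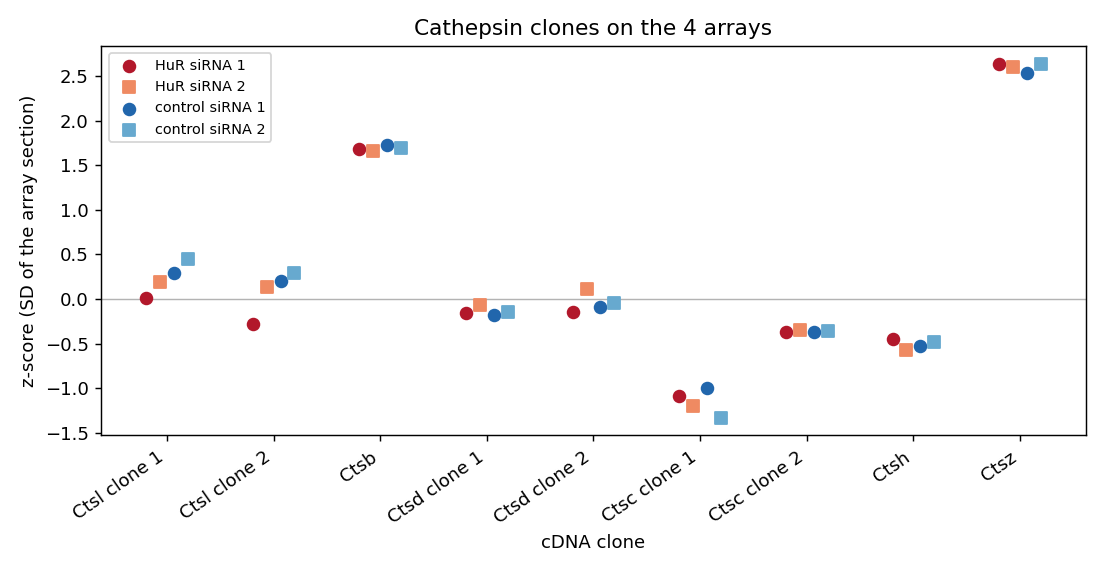
Z-scores (vertical axis, in SD of the array section) of the 9 cathepsin clones on the 4 arrays, 1 point per array, with HuR siRNA in red shades and control siRNA in blue shades. Both Ctsl clones have HuR siRNA array 1 lowest (0.01 and -0.28), while the points of most other clones lie close together.

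Of the 9 clones, 3 were lower without overlap, against 13.7% of all clones, and 0 were higher, against 13.9%. The 3 are the 2 Ctsl clones, which the choice of genes used, and the clone of Ctsb, so nothing is read from this count. The median difference was 0.005 over the 9 clones and 0.0 over all clones. In the fit over all clones limma called 0 of 16834 (0.0%) at the adjusted threshold of 0.05, and 665 (3.95%) stood below 0.05 without adjustment. With 0 calls in all, there could be none among the cathepsins. The first Ctsl clone was among the 665, but the choice of genes used its values, so nothing is read from that. With 2 arrays against 2 an exact permutation test cannot give a p below 0.333.

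**Figure D2:**
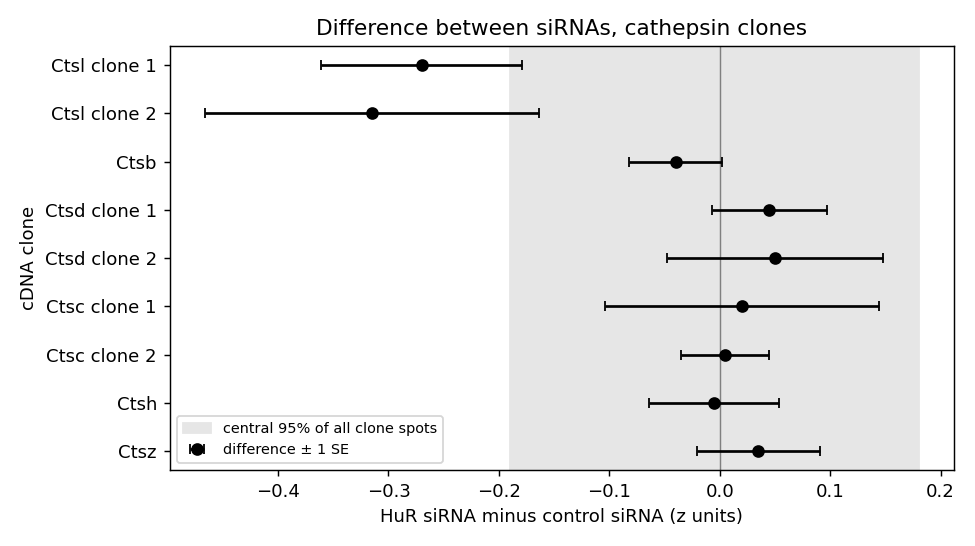
Difference between HuR siRNA and control siRNA in z units (horizontal axis) for each cathepsin clone, with bars of 1 SE from the fit over all clones. The grey band holds the central 95% of all clone spots, from -0.19 to 0.18, and the Ctsl clones at -0.27 and -0.315 lie outside it.

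The 2 Ctsl clones were neighbours in the clone collection. They came from columns 3 and 4 of row F of source plate 28 and were spotted in grids 342 and 344 of the first section. The 2 Ctsd clones were likewise neighbours on plate 138, whereas the Ctsc clones came from plates 37 and 55. Over 28 genes with 2 clones in neighbouring wells, the differences of the clones correlated at a Pearson r of 0.7. Ctsl is among them and was chosen because both its clones were lower, and without Ctsl r was 0.56. Without the 2 pairs farthest from the median, those of Ctsl and of Npm1, r was 0.31. Over 1306 genes whose 2 clones came from different plates r was 0.0, and over 5141 pairs of neighbouring wells with different genes it was 0.1. These correlations are across genes, which share the arrays and are not independent replicates.

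Both clones were lower without overlap in 31 of 1366 genes with 2 clones (2.27%) and both higher in 46 (3.37%). Both were lower in 2 of the 28 with clones in neighbouring wells, and in 155 of the 5141 pairs of neighbouring wells with different genes (3.01%). The 2 were Ctsl and Ptma, the gene of the nuclear protein prothymosin alpha, at -0.115 and -0.125. The place of Ctsl in this count was fixed by the choice of genes. Without it the count is 1 of 27 (3.7%), and nothing is read from it. Ptma was named after its values were seen.

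**Figure D3:**
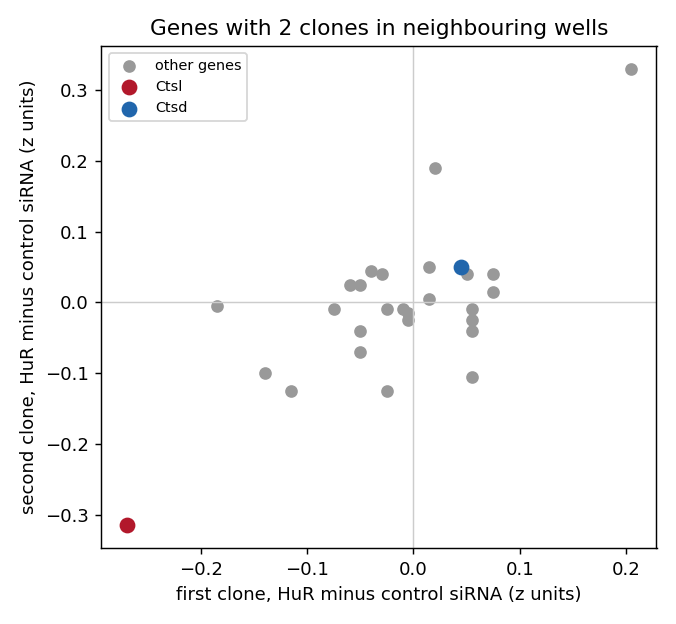
Difference between HuR siRNA and control siRNA in z units on the first (horizontal) and second (vertical) clone of the 28 genes with 2 clones in neighbouring wells, 1 point per gene. Ctsl lies at the lower left (-0.27 and -0.315), Ctsd near the middle (0.045 and 0.05), and the grey point at the upper right is Npm1 (0.205 and 0.33).

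Other clones near those of Ctsl were also often lowest on HuR siRNA array 1. This held for 44 of the 94 other clone spots of plate 28 (46.8%) and for 9 of the 21 others in each of grids 342 and 344 (42.9%), against 23.7% of all clone spots. On plate 28 their median deviation from their own means was -0.051 on HuR siRNA array 1, 0.065 on HuR siRNA array 2, and -0.031 and 0.017 on control arrays 1 and 2. The other clones of plate 28, Ctsh among the cathepsins left out, had a median difference between the groups of 0.01. Of these 93 clones, 3 were lower and 16 higher without overlap, against 13.7% and 13.9% of all clones. Among the 21 others of grid 342, 2 were lower and 0 higher. Among the 21 of grid 344, 5 were lower and 0 higher. With plate medians removed the Ctsl differences were -0.253 and -0.297, and with grid medians removed they were -0.25 and -0.215.

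The clones whose profile over the 4 arrays was closest to the mean Ctsl profile were sought among 9523 clones of 6733 other genes. Profiles were centred on their mean and compared by Euclidean distance. The nearest was a clone of Lpcat4, an acyltransferase of phospholipid remodelling, at a distance of 0.054. It was followed by Glg1, a glycoprotein of the Golgi apparatus, at 0.065 and by Wdr7, which encodes a WD-repeat protein, at 0.069. The median distance was 0.386, and each Ctsl clone lay 0.091 from their mean profile. The clones of Lpcat4 (-1.57, -1.28, -1.26 and -1.08 on HuR siRNA arrays 1 and 2 and control arrays 1 and 2) and Glg1 (0.23, 0.58, 0.70 and 0.77) lay in grid 344, the grid of the second Ctsl clone. Lpcat4 filled the position next to it on the array. The Wdr7 clone lay in grid 145 of the other section and came from plate 142, away from both Ctsl clones. It was at -0.74, -0.42, -0.43 and -0.27 in the same order of arrays. Its groups overlapped, unlike those of Lpcat4 and Glg1. The search itself favoured profiles with the groups apart as in Ctsl, so nothing is read from that. What the shared position contributes to the Ctsl values was not tested.

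**Figure D4:**
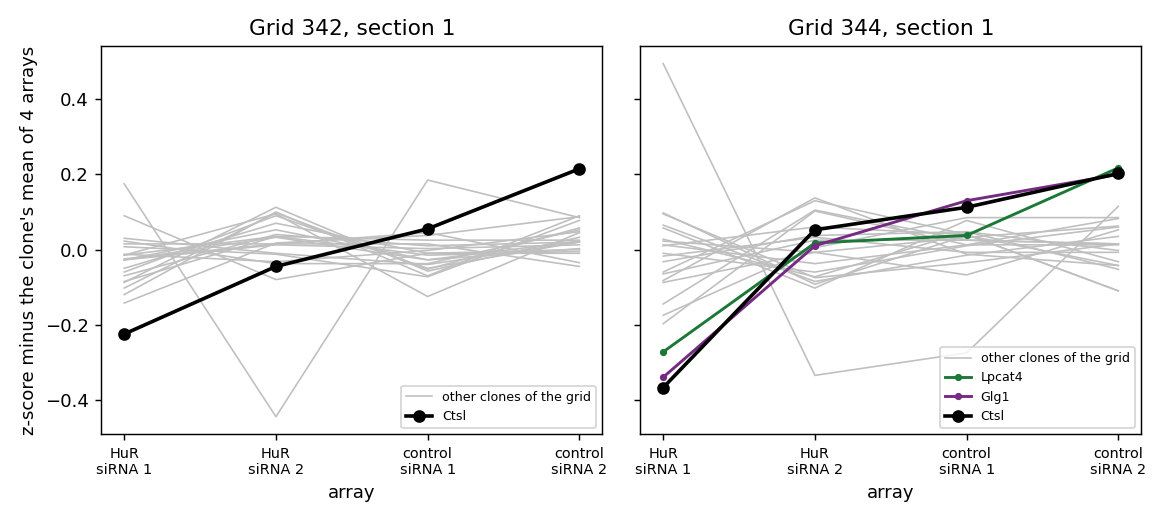
Z-score of each clone minus its mean over the 4 arrays (vertical axis) on each array (horizontal axis), for the clones of grids 342 and 344 that hold the 2 Ctsl clones. Ctsl is drawn in black, and in grid 344 Lpcat4 (green) and Glg1 (purple) run close to it with their lowest value on HuR siRNA array 1.

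Levels of different clones are not amounts of mRNA that can be set against each other, because each clone has its own length and hybridisation. The rank of a clone within its array section says only where its spot lies. The Ctsz clone lay at 97.9 to 98.1% of its section's spots from below and the Ctsb clone at 92.9 to 93.4%. The Ctsl clones ranged from 59.8 to 73.2% and from 47.7 to 69.1%, the widest spans among the 9 clones. The Ctsd clones lay at 48.8 to 54.4% and 50.6 to 61.3%, and Ctsh at 30.3 to 38.7%. The 2 Ctsc clones disagreed in level, at 4.2 to 9.8% and 42.3 to 43.2%, with mean z-scores 0.793 apart.

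Such gaps are common on these arrays. The median gap in mean z-score between the 2 clones of a gene was 0.728, and 53.3% of genes with 2 clones had a smaller gap than Ctsc. Over the 1306 genes with clones on different plates the mean levels correlated at 0.02, compared with 0.31 between neighbouring wells with different genes. For the 28 genes with 2 clones in neighbouring wells the correlation was 0.22. Whether the gene names of the clones in the deposited table are right, those of the Ctsl clones included, was not tested. On 112 clone spots the identifiers pointed to more than 1 gene, and these stayed without a name. Clones of cytosolic ribosomal proteins, which every cell makes in large amounts, had a median rank of 76.8% (168 clones). No level is therefore compared between clones here.

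In bulk RNA, fewer cells of a type and less RNA per cell cannot be told apart, and macrophages are known for a high content of several cathepsins. The sample titles name C2C12 cells and no other cell type. Of 14 macrophage and endothelial markers 5 were measured, each by 1 clone, and all 5 had a lower mean with HuR siRNA, as did 46.9% of all clones. Their median difference was -0.06, and 2 of them, Lyz2 (-0.06, SE 0.042) and the endothelial cadherin Cdh5 (-0.285, SE 0.131), were lower without overlap, against 13.7% of all clones. The Cdh5 clone was dim, with a mean z-score of -1.292, and had the largest difference of the 5. Csf1r (-0.05, SE 0.053), Fcer1g (-0.035, SE 0.063) and Pecam1 (-0.08, SE 0.081) overlapped between the groups. The 5 markers' summed z-scores were -0.68 and -0.68 on the HuR siRNA arrays and -0.27 and -0.07 on the control arrays, and their part in the Ctsl values was not tested. Of 10 myoblast markers only Vim and Igf2 were measured. Vim, an intermediate filament gene, was at 0.57 to 0.64 over the 4 arrays. Igf2, a growth factor gene, was lower on 1 clone (-0.035, SE 0.04) and higher on the other (0.115, SE 0.066), both without overlap. The muscle identity of the cells could not be checked further.

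Beside the 6 genes, 4 further cathepsin genes of 16 listed were on the array. Cts7 (0.075, SE 0.052) and Cts8 (0.035, SE 0.069) encode placental relatives of cathepsin L, Ctsa (0.015, SE 0.046) a serine carboxypeptidase and Ctsf (-0.02, SE 0.045) a cysteine protease. Cts7 was higher without overlap, as were 13.9% of all clones, and the groups overlapped for the other genes. All 4 had a limma adjusted p of 0.99. Since the spotted cDNA of a gene may also bind the transcripts of close relatives, whether the Ctsl and Cts7 or Cts8 spots share signal was not tested.

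The inhibitors of cathepsins gave 9 clones of 6 genes among 12 listed, with a median difference of -0.01 and 0 calls. Ctla2a, which encodes a protein resembling the propeptide of cathepsin L, was at 0.68 and 0.65 with HuR siRNA and at 0.59 and 0.60 with control siRNA. Its difference of 0.07 (SE 0.041) was the one without overlap among the 9 clones, while 13.9% of all clones were higher without overlap. Its relative Ctla2b differed by -0.06 (SE 0.052). Cystatin C (Cst3), a secreted inhibitor, differed by -0.015 (SE 0.068) and -0.02 (SE 0.07) on its 2 clones, and cystatin B (Cstb), its cytosolic counterpart, by 0.01 (SE 0.066). The serpin genes Serpina3g and Serpinb6a differed by -0.015 to 0.085 and by -0.01 and -0.005. All had a limma adjusted p of at least 0.99.

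Of the 23 clones for sorting of lysosomal enzymes, 3 were lower without overlap (Ap1g1, Gga1 and Sorl1) and 3 higher (Ap1s1, Vps35 and Cltc). All clones gave 13.7% lower and 13.9% higher, for comparison with these counts and those of the hydrolases. Ap1g1 and Ap1s1 encode subunits of the same clathrin adaptor, AP-1, and these clones differed by -0.06 (SE 0.04) and 0.05 (SE 0.04). The other Ap1g1 clones, at -0.115 (SE 0.085) and 0.005 (SE 0.063), overlapped between the groups. The other lysosomal hydrolases had 34 clones, of which 5 were lower (Dnase2a, Pla2g15, Glb1, Gusb and Galns) and 5 higher (Smpd1, Hgsnat, Gaa, Neu1 and Aga). Smpd1, the acid sphingomyelinase gene, differed by 0.655 (SE 0.253) and Hgsnat, an enzyme of heparan sulfate breakdown, by 0.195 (SE 0.096). The Smpd1 clone was among the dimmest of its section, with a mean z-score of -1.868. The lowest differences of the list, -0.29 on 1 clone of Ppt1 and -0.275 on Manba, came with overlapping groups. The other Ppt1 clones differed by 0.095 and 0.015.

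Lysosomal membrane and related proteins had 20 clones of 11 genes. Of these clones 16 had a lower mean, next to 46.9% of all clones, and 4 a higher one, with a median of -0.042 against 0.0 over all clones. Without overlap, where all clones gave 13.7% lower and 13.9% higher, 5 were lower (Npc2, Laptm4a, Lamp2, Cd63 and Npc1) and 1 was higher, another clone of Npc2. The cholesterol carrier gene Npc2 thus differed by -0.09 (SE 0.048) on 1 clone and 0.055 (SE 0.041) on another, while its remaining clone overlapped at -0.04 (SE 0.055). Laptm4a differed by -0.085 (SE 0.04) on 1 clone and by -0.02 (SE 0.071), with overlap, on the other. The vacuolar ATPase, which acidifies the lysosome, had 23 clones with 6 lower and 6 higher without overlap, among them Atp6ap1 (-0.135, SE 0.079) and Atp6v0e (0.115, SE 0.05). The other Atp6ap1 clone overlapped, at -0.08 (SE 0.096).

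Among regulators of the lysosome, 11 clones were measured. Without overlap, all clones gave 13.7% lower and 13.9% higher, for comparison with the counts of this list and of autophagy. Mtor, the kinase that restrains TFEB, differed by -0.1 (SE 0.047) and Rragc, a GTPase that recruits it, by -0.085 (SE 0.043), each on 1 clone and lower without overlap. Their other clones overlapped, at -0.005 (SE 0.081) for Mtor and -0.03 (SE 0.052) for Rragc. Lamtor1 was the 1 higher clone. The autophagy list had 32 clones with 3 lower (Ulk1, Atg5 and Gabarapl2) and 5 higher (Map1lc3b, Atg9a, Wipi2, Ulk2 and Atg7). Map1lc3b, a coat protein of the autophagosome, differed by 0.61 (SE 0.168) on a dim clone (mean z-score -1.495) and by -0.005 (SE 0.065) on another. The dim Map1lc3b and Smpd1 clones both came from source plate 82. The 95 clones of that plate had a median difference of 0.025, and 15.8% were higher without overlap, against 13.9% of all clones. Of the 95, 3 differed by at least as much as the Map1lc3b clone, that clone and Smpd1 included.

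Together the 8 lists of lysosomal genes had 109 measured genes of 169 and 156 clones. Of these clones 15.4% were lower and 14.7% higher without overlap, next to 13.7% and 13.9% of all clones. Their median difference was -0.01. Limma called 0 of them at the adjusted threshold of 0.05. Without adjustment 2 stood below 0.05, the dim clone of Map1lc3b and 1 clone of Dnase2a (-0.14, SE 0.042), the gene of the lysosomal nuclease DNase II. The other Dnase2a clone differed by -0.03, with overlap.

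**Figure D5:**
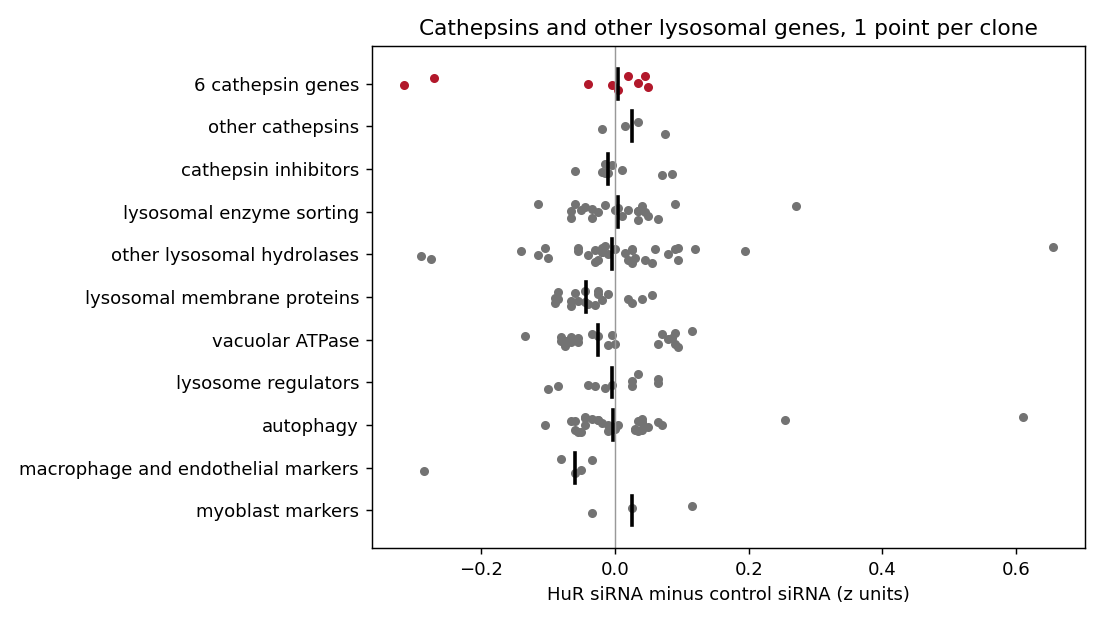
Difference between HuR siRNA and control siRNA in z units (horizontal axis) for each clone of the 6 cathepsin genes (red) and of the other lists (grey), with the median of each list as a black bar. Medians lie between -0.06 and 0.025, and the rightmost points are the dim clones of Smpd1 (0.655) and Map1lc3b (0.61).

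The targeted gene gives no check of the groups. The 2 Elavl1 clones differed by -0.045 (SE 0.048) and 0.03 (SE 0.058), both overlapping, with a limma adjusted p of 0.99. The deposited table is named after an siRNA against NPM, and the product of Npm1 is the nucleolar protein nucleophosmin. The 2 Npm1 clones were higher without overlap with HuR siRNA, by 0.205 (SE 0.057) and 0.33 (SE 0.079), with a limma adjusted p of 0.99 for both (0.0196 and 0.0119 unadjusted). Which siRNA the cells received cannot be read from these values. The direction given for Ctsl therefore rests on the labels of the arrays. No array stood apart, with Pearson's r across clones of 0.9831 and 0.9824 within the groups and of 0.9802 to 0.9845 between them.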

How the data were processed

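The authors deposited z-scores for 4 arrays of spotted cDNA clones, hybridised with 33P-labelled cDNA per the labels' protocols. These scores were standardised by the authors before they were deposited, as read from the values: within each section of 8448 spots the mean is 0 and the SD is 1. The sources used here name no scanner, background correction or log base. Each column was matched to a sample title through its siRNA and replicate number. The column headings also share a further number without a unit, which the sources used here do not explain. The deposited table's own name speaks of an siRNA against NPM. A second deposited table held equal values in all 67584 cells.

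Of the spots 52 were described as empty and 16840 carried a clone. Symbols were updated through gene IDs, accessions or symbols with the RefSeq table of GRCm38.p6, which named 56.6% of clone spots. Spots of 1 clone were averaged and clones of a gene kept apart. Groups were compared over all 16834 clones with limma 3.58.1 in R 4.3.3 (two-sided, no block, Benjamini-Hochberg adjustment, threshold 0.05), which gave the SE of each difference. The steps were tested on simulated data. The members and gene lists were chosen with earlier results of these data known. From each list the 2 genes of largest difference without overlap were named, and every measured gene of the cathepsin and inhibitor lists. Further genes were named after their values were seen, where a count was 5 or fewer. Ppt1 and Manba were also named after their values were seen. The comparisons of neighbouring wells and of grids were likewise chosen after seeing the data. The number of arrays limits the precision, with a median SE of 0.053.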

Additional observations from a re-analysis of the deposited data

How the results depend on the processing

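The count of clones past limma's adjusted threshold was 0 under the alternatives tried (removal of grid or source plate medians, leaving out spots at the most frequent value or the lower 50% of clones, a replicate block, each array left out, clones of a gene averaged, every spot apart), except quantile normalization within each section, where it was 1, a clone with no gene symbol. The cause was not tested. The smallest adjusted p ranged from 0.03 to 0.939. With the replicate block 0 clones passed and 962 had an unadjusted p under 0.05, against 665 without it; same-numbered arrays deviated together at a correlation of 0.101, and 2 pairs are too few to show a pairing.

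Both Ctsl clones stayed lower under every alternative, from -0.36 to -0.18 and from -0.525 to -0.105. Both extremes came from leaving out an array, where the remaining single array is taken to vary as the other group does. Ctsl was chosen for groups without overlap, so leaving out an array could not change the sign. The filters on most frequent and low values, the replicate block and every spot apart left both differences as they were. Nothing is read from the constant sign. Ctsb ranged from -0.13 with plate medians removed to -0.02. The differences of the Ctsd, Ctsc, Ctsh and Ctsz clones took either sign over the alternatives. The filter on low values kept 6 of the 9 clones. The median difference of the cathepsin clones ranged from -0.035 to 0.013. Ranks among clone spots moved by at most 0.1 points.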
